A study of Mus musculus with 6 samples.

Results

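The tetraspanins are a family of small membrane proteins, and 10 of their genes were examined among the 36083 genes of the expression table: Tspan8, Tspan3, Tspan32, Cd9, Cd37, Cd53, Cd63, Cd81, Cd82 and Cd151. The members were chosen by gene name with their levels in these libraries already known, so the WT against Sdc1 KO values of the members are given as a description and without a test. The cells were lineage-negative (Lin-) blast crisis chronic myeloid leukemia (bcCML) cells of the mouse, the immature leukemic cells that lack the surface markers of mature blood lineages. KLS cells, a bone marrow fraction rich in stem and progenitor cells, came from donors on the B6 background that were WT or Sdc1-/-, and in both groups they were made to carry the fusion oncogenes BCR-ABL and NUP98-HOXA9 before transfer into NSG mice, an immunodeficient strain. Spleens of both cohorts were taken at 1 common time, and RNA-seq was run on 3 libraries labelled WT and 3 labelled Sdc1 KO (called KO-labelled here). The labels give no ages of the mice and do not say how many leukemias or spleens stand behind the libraries of a group.

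Tetraspanins span the membrane several times and have few ligands of their own. They gather in tetraspanin-enriched microdomains, where they hold integrins, proteases, immunoglobulin-superfamily proteins and signalling enzymes together, and several of them are sorted into late endosomes and the small vesicles released from them. In blood cells they are known for roles in adhesion, migration and antigen receptor signalling, and Syndecan-1, the heparan sulfate proteoglycan encoded by Sdc1, meets them through the adaptor syntenin, encoded by Sdcbp, which binds both the syndecan tail and CD63.

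The deposited value of a gene is TPM, a level per transcript length, which the authors rescaled between libraries, so that levels can be compared between genes. Library sums ranged from 944973 to 1058263 and the read depth is unknown. Every WT library had a sum of 1048875 or more and every KO-labelled library one of 951814 or less. The deposited scale thus differs between the groups, and small differences depend on it. The study's supplementary legend describes the WT libraries as technical replicates, so each SD and p-value may measure technical spread only. Sdc1, which encodes the targeted protein, was at 1.75, 1.21 and 1.51 in WT libraries 1 to 3 and at 3.85, 3.80 and 4.12 in the libraries labelled Sdc1 KO, an increase of 0.99 on the log2(value + 1) scale (SE 0.093, limma, Benjamini-Hochberg adjusted p = 1.2e-04). The knockout allele disrupts the signal peptide sequence and keeps mature protein from the cell surface, so this mRNA level does not check the genotype, and the groups are named by their labels throughout. The summed level of the Y-linked genes Ddx3y, Eif2s3y, Kdm5d and Uty was 0.28 to 0.31 in WT and 68.1 to 78.4 in the KO-labelled libraries, so sex and genotype of the cells cannot be told apart in any difference described here. In RNA from a mixture of cells, fewer cells of a type and less RNA per cell cannot be told apart either.

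The 10 members lie on 6 chromosomes (build GRCm38). Of these, 4 are on chromosome 7, where Tspan32 (chr7:143005046-143019644) and Cd81 (chr7:143052739-143067934) are neighbours on the plus strand, and Cd151 (chr7:141467392-141471473, plus strand) and Cd37 (chr7:45233632-45239115, minus strand) lie apart from them. Tspan8 (chr10:115816832-115849893) and Cd63 (chr10:128900989-128912822) are on the plus strand of chromosome 10. The others are Cd82 (chr2:93419111-93463140), Cd53 (chr3:106759921-106790149), Cd9 (chr6:125460266-125494791) and Tspan3 (chr9:56131725-56165477), all on the minus strand. Their longest annotated proteins have 219 to 303 residues (median 245.5) from 6 to 9 coding exons, and for the 21 other tetraspanins the range was 204 to 351 residues (median 257).

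For 4 members the 250 bases before the RefSeq start of transcription are shown: Tspan8 and Cd53, the members with the largest difference in the higher and in the lower direction in the KO-labelled libraries, and the neighbours Tspan32 and Cd81, which were lower together. Capitals mark matches, on either strand, to short words bound by blood or general transcription factors. For GATA factors the words searched were AGATAA and, as a second form, TGATAA. The word for Runx factors was TGTGGT, that for PU.1 was GAGGAAGT, and that for C/EBP factors was TTGCNNAA. The octamer of POU factors was ATGCAAAT, and the GC box of Sp1 and Klf factors was GGGCGG. The general words were the CCAAT box, spelled as its name, and the TATA box, spelled TATAAA. All were chosen with the levels known. The sequences are from RefSeq on GRCm38.p6, chr10:115817034-115817283 (plus strand), chr3:106790150-106790399 (minus strand), chr7:143004796-143005045 (plus strand) and chr7:143052500-143052749 (plus strand). The Tspan8 window lies mostly in an intron of a GENCODE transcript that starts further upstream.
Tspan8: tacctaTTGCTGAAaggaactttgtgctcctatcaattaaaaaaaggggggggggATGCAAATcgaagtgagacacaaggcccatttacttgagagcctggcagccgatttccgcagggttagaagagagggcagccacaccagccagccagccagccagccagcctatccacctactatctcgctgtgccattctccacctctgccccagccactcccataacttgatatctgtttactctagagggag
Cd53: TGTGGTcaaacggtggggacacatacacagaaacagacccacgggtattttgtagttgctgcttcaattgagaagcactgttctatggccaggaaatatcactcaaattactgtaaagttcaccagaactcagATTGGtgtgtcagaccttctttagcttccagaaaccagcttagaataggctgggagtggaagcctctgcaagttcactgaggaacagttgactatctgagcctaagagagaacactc
Tspan32: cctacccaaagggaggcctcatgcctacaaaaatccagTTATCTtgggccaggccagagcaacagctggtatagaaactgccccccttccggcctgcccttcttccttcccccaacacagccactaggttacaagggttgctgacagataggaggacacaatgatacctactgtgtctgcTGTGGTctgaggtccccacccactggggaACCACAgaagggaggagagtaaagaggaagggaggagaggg
Cd81: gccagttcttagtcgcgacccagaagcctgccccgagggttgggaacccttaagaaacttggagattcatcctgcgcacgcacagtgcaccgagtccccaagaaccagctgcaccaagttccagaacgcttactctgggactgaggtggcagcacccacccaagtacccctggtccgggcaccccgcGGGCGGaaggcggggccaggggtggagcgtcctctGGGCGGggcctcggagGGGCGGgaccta

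Among the 14 RefSeq starts of the 10 members, the window of Tspan8 was the only one with the octamer, at position -195 from the start, a word that 1.60% of 32851 RefSeq promoters of this length hold. It also had a C/EBP word at -244 (9.56% of promoters), which was found otherwise only before starts of Cd82. The GC box (32.7% of promoters) occurred before at least 1 start of Cd9, Cd37, Cd81, Cd82 and Cd151, with 3 copies before Cd81. Runx words (14.05% of promoters) stood before Cd53, Cd82, Tspan3 and Tspan32, with a pair of them before Tspan32. A GATA word, AGATAA (9.99% of promoters), was found only before Tspan32, and the window of Cd63 held none of the words. These matches describe letters, and whether a factor binds there was not measured.

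Tspan8 showed by far the largest difference of the members. This tetraspanin binds integrins, EpCAM and CD44 and is known from migrating carcinoma cells. Its value was 10.1, 10.7 and 11.1 in WT libraries 1 to 3 and 74.3, 80.9 and 81.6 in KO-labelled libraries 1 to 3. Every KO-labelled library was thus far above every WT library. The means were 10.6 ± 0.52 and 78.9 ± 4.04 (SD, n = 3 each), 7.43-fold higher in the KO-labelled libraries, or 2.78 on the log2(value + 1) scale (SE 0.053). Ranked from the highest, this difference was number 8 of the 12155 genes whose mean reached 1. Of the Y-linked genes, Eif2s3y (5.59), Ddx3y (3.79) and Uty (2.95) stood above it and Kdm5d (2.63) below it. No stretch of 31 bases of the annotated Tspan8 transcripts occurs in the same orientation in a transcript of a gene outside the members. The upstream window of Tspan8, printed above, is the one with the octamer.

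Tspan3 and Cd9 were the other members with higher values, by far less. Tspan3, which is expressed in most tissues and has a known role in the self-renewal of myeloid leukemia stem cells, was at 14.8, 15.1 and 15.1 in WT and at 18.5, 16.9 and 16.5 in the KO-labelled libraries. The difference was 0.20 on the log2 scale (SE 0.050), with the lowest KO-labelled library above the highest WT library. Cd9, a partner of integrins and of EWI proteins on progenitors, megakaryocytes and platelets, had values of 151, 140.3 and 142 in WT and of 154, 153 and 152 in the KO-labelled libraries. Its groups were close to touching, WT library 1 being nearest to the KO-labelled ones, and the means of 144 ± 5.57 and 153 ± 1.15 (SD, n = 3 each) differed by 0.09 on the log2 scale (SE 0.035). Of the 31-base stretches of Cd9 transcripts, 10.8% also occur in genes outside the members, and its pseudogene Cd9-ps was at 0.067 or less in every library.

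The pan-leukocyte tetraspanins Cd53 and Cd37 were lower in the KO-labelled libraries. Cd53, which is found on nearly all white blood cells and stabilises the phosphatase CD45 and adhesion receptors, had values of 107, 125 and 129 in WT and of 57.3, 63.3 and 70.4 in the KO-labelled libraries. This was the largest difference in the lower direction among the members, from 120 ± 11.5 to 63.7 ± 6.55 (SD, n = 3 each), a log2 difference of -0.91 (SE 0.093), and Cd53 also had the widest spread relative to its mean in both groups. Cd37, best known from mature B cells but present on myeloid cells, was at 111, 105 and 113 in WT and at 98.8, 88.4 and 92.3 in the KO-labelled libraries. The gap between its groups was narrow, and the log2 difference was -0.23 (SE 0.050). Tead2, on the opposite strand and overlapping Cd37, was at 0.79 or less in WT and 1.61 or less in the KO-labelled libraries, far below Cd37.

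Cd63 had the highest level of the family in every library. It is the tetraspanin of late endosomes, lysosomes, granules and released vesicles. The values were 439, 419 and 432 in WT and 310.4, 324 and 308 in the KO-labelled libraries, with no overlap. Means of 429.9 ± 10.4 and 314 ± 8.43 (SD, n = 3 each) differed by -0.45 on the log2 scale (SE 0.033). Genes outside the members share 15.9% of the 31-base stretches of its transcripts. Most of these are shared with the pseudogene Cd63-ps, which was at 0.94 to 1.54 in WT and 0.96 to 1.21 in the KO-labelled libraries. The level listed for the pseudogene was thus less than that of any member.

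Cd81 and Tspan32, neighbours on chromosome 7, were next in level and were lower to a like extent. Cd81, a partner of integrins in many cells, was at 226, 223 and 220.3 in WT and at 166, 160.2 and 159.8 in the KO-labelled libraries. Tspan32, a tetraspanin of hematopoietic cells that binds platelet integrin αIIbβ3 and restrains T cell proliferation, was at 205, 205 and 205 in WT and at 156, 159 and 153 in the KO-labelled libraries. The log2 differences were -0.46 (SE 0.029) for Cd81 and -0.39 (SE 0.028) for Tspan32. Tspan32 had the smallest spread of all members in WT relative to its mean, 204.9 ± 0.33 (SD, n = 3). The gene Tssc4, which follows Cd81 on the same strand, had values of 34.8 ± 2.06 in WT and 37.9 ± 1.36 in the KO-labelled libraries (SD, n = 3 each), which overlapped (log2 fold change 0.12, SE 0.052, limma, adjusted p = 0.079).

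Cd82 and Cd151 were at lower levels. Cd82, known as a suppressor of metastasis and for holding hematopoietic stem cells in quiescence, was at 39.4, 36.0 and 38.4 in WT and at 23.3, 23.0 and 21.8 in the KO-labelled libraries. Its difference of -0.72 on the log2 scale (SE 0.047) was second among the lower members, after Cd53. Cd151, the main partner of laminin-binding integrins, was at 32.0, 32.9 and 33.1 in WT and at 31.3, 29.5 and 30.0 in the KO-labelled libraries. The WT minimum and the KO-labelled maximum of Cd151 were close, and the log2 difference was -0.11 (SE 0.036), which became 0.04 with equal library sums.

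**Figure D1:**
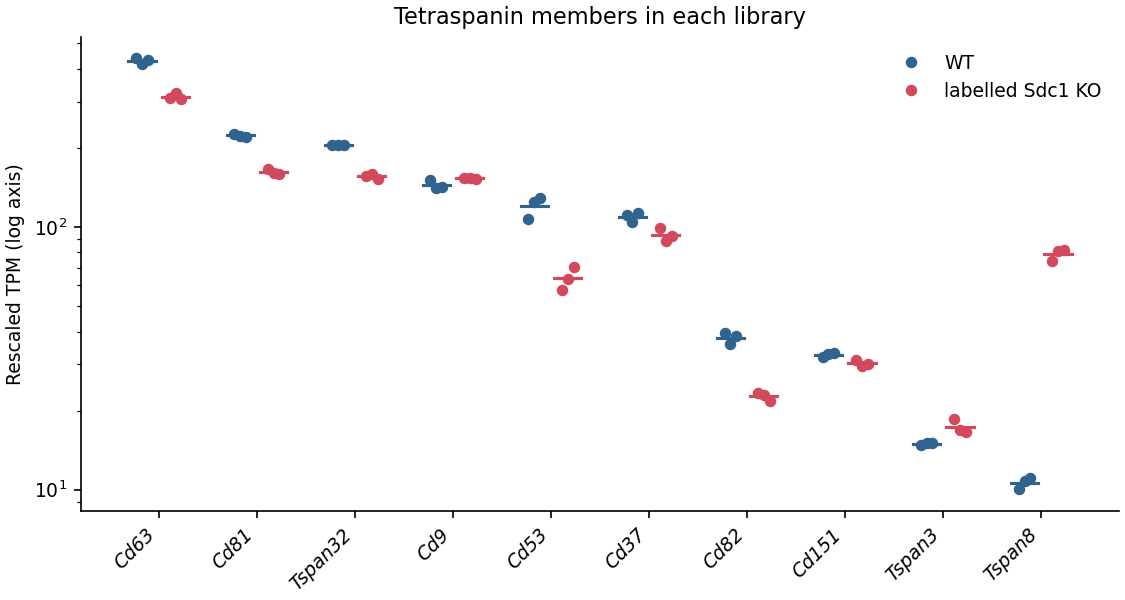
Rescaled TPM (log axis) of the 10 tetraspanin members in the 3 WT libraries (blue points) and the 3 libraries labelled Sdc1 KO (red points), with a line at each group's mean. Tspan8 stands at 10.1 to 11.1 in WT and 74.3 to 81.6 in the KO-labelled libraries, while Cd63, the most abundant, goes from 419 to 439 down to 308 to 324.

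Of the 10 members, all of which passed the minimum mean of 1, 3 were higher and 7 lower in the KO-labelled libraries with no overlap between the groups. Over the 12155 genes with that mean, 32.6% were higher and 34.2% lower without overlap. Because the choice of members used this contrast, nothing is read from the member counts or from the median and directions of the members given next. The median log2 difference of the members was -0.31 and that of all tested genes -0.0097. With all libraries brought to an equal sum of 1000000, the median of all genes moved up by 0.13, and the difference of Cd151 turned from -0.11 to 0.04. Relative to the median of all genes, each member kept its direction under that scaling and under quantile normalization, Cd151 being at -0.10, -0.09 and -0.11 and Cd9 at 0.10, 0.11 and 0.14 with the deposited scale, equal sums and quantile normalization.

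The order of the members by level changed in part. In WT it ran Cd63, Cd81, Tspan32, Cd9, Cd53, Cd37, Cd82, Cd151, Tspan3 and Tspan8, and only Cd53 and Cd37 had overlapping ranges among neighbours. In the KO-labelled libraries it ran Cd63, Cd81, Tspan32, Cd9, Cd37, Tspan8, Cd53, Cd151, Cd82 and Tspan3, and only Tspan32 and Cd9 overlapped. The first 4 places were thus held by the same genes, Tspan8 went from place 10 to place 6, and Cd82 passed below Cd151.

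Shares of the summed tetraspanin value describe the same levels without regard to scaling between libraries. The share of a gene also moves when other genes of the sum change, so it is not a measure of that gene alone. The 31 tetraspanin genes in the table summed to 1616 ± 18.7 in WT and 1374 ± 9.05 in the KO-labelled libraries (SD, n = 3 each), which was 0.154% and 0.145% of the library sums. The 10 members made up 82.2% ± 0.077 and 79.4% ± 0.14 of the family sum. Cd63, Cd81 and Tspan32 together held 53.1% ± 0.52 in WT and 46.0% ± 0.51 in the KO-labelled libraries.

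Within this sum, Tspan8 took 0.66% ± 0.033 in WT and 5.74% ± 0.31 in the KO-labelled libraries (SD, n = 3 each). The share of Cd9 was 8.93% ± 0.31 and 11.1% ± 0.054, with a wider gap between the groups than its level had. For Cd37 the shares were 6.78% ± 0.20 and 6.78% ± 0.39, with overlapping libraries, although its level was lower. Cd151, lower in level on the deposited scale, had a share of 2.02% ± 0.044 and of 2.20% ± 0.069. The share of Cd53 was 7.46% ± 0.73 and 4.64% ± 0.50.

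**Figure D2:**
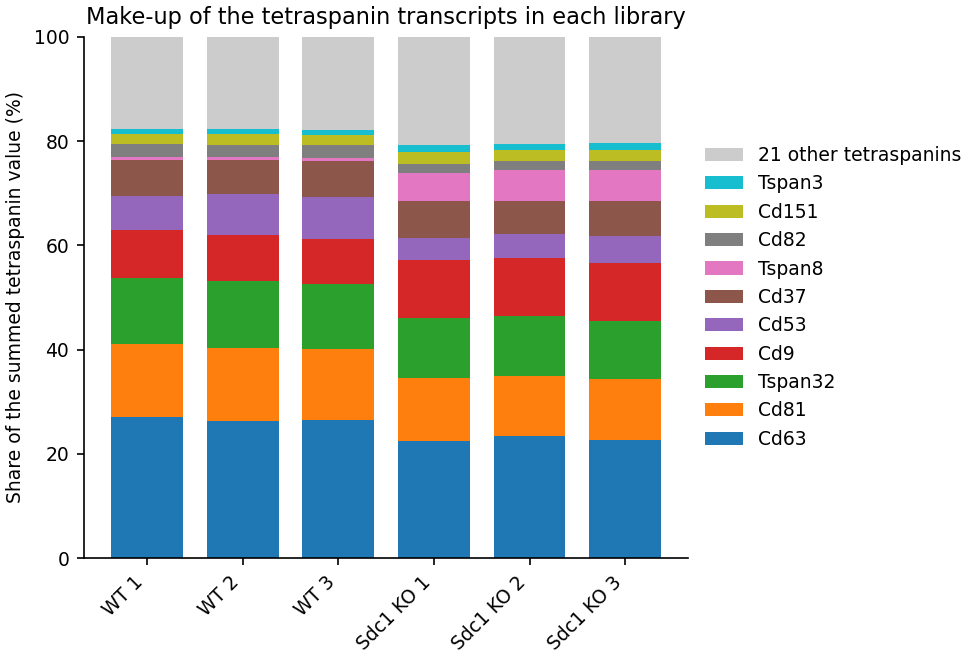
Share (%) of the summed rescaled TPM of 31 tetraspanin genes held by each member in the 3 WT and the 3 KO-labelled libraries, with the 21 other tetraspanins in grey. The band of Tspan8 widens from a mean of 0.66% to 5.74%, and Cd63, Cd81 and Tspan32 together narrow from 53.1% to 46.0%.

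The rest of the family was tested with limma in the fit over all 12155 genes. Of 23 further tetraspanins 21 were in the table, and 11 of them were below a mean of 1, with no library above 1.22, and 2 of those, Tspan11 and Prph2, were listed at 0 in all libraries. Of the 10 tested, 3 rose and 4 fell in the KO-labelled libraries (adjusted p under 0.05), where 29.3% of all tested genes rose and 31.3% fell. With equal library sums the split was 5 up and 4 down, where 43.5% of all tested genes rose and 19.6% fell. The median log2 fold change of the 10 was -0.10.

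Rom1, a tetraspanin known from photoreceptor discs, fell most, from 24.1 ± 2.26 to 8.67 ± 0.45 (SD, n = 3 each; log2 fold change -1.37, SE 0.074, limma adjusted p = 9.8e-06). Tspan6 rose most among those tested, from 1.60 ± 0.071 to 3.83 ± 0.28 (log2 fold change 0.89, SE 0.070, limma adjusted p = 5.2e-05). Tspan6 is on the X chromosome, and the groups differed in Y-linked levels as given above. Tspan4, known from migrasomes, the vesicles left behind by migrating cells, rose from 80.7 ± 2.47 to 90.5 ± 3.35 (log2 fold change 0.16, limma adjusted p = 0.0099). It was the most abundant tetraspanin outside the members, and it lies next to Cd151 on chromosome 7. Tspan31 rose by a similar 0.16 (limma adjusted p = 0.0084), from 61.9 ± 1.93 to 69.2 ± 2.01 (SD, n = 3 each).

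The TspanC8 tetraspanins, which escort the protease ADAM10 to the cell surface, were all in the table, 6 in number, and 4 were tested. Tspan33 fell from 22.0 ± 0.30 to 15.6 ± 0.91 (SD, n = 3 each; log2 fold change -0.47, limma adjusted p = 1.7e-04) and Tspan17 from 2.30 ± 0.19 to 1.29 ± 0.37 (log2 fold change -0.54, limma adjusted p = 0.0091). Tspan14, the most abundant of them, was at 41.1 ± 0.71 and 41.2 ± 1.30, and Tspan5 at 6.04 ± 0.54 and 5.12 ± 0.73, and neither passed the threshold (limma adjusted p = 0.97 and 0.12). No TspanC8 gene rose on the deposited scale, also at an unadjusted p under 0.05 (0 of 4 in limma). Of all tested genes 29.3% rose there at an adjusted p under 0.05, and nothing is read from a count of 4. With equal library sums, where 43.5% of all tested genes rose, Tspan14 passed the threshold with a log2 fold change of 0.15. Outside this group Tspan2 fell from 4.25 ± 0.27 to 2.71 ± 0.12 (log2 fold change -0.50, limma adjusted p = 5.3e-04), and Tspan13 did not pass (41.3 ± 2.27 and 43.2 ± 3.13, limma adjusted p = 0.41).

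**Figure D3:**
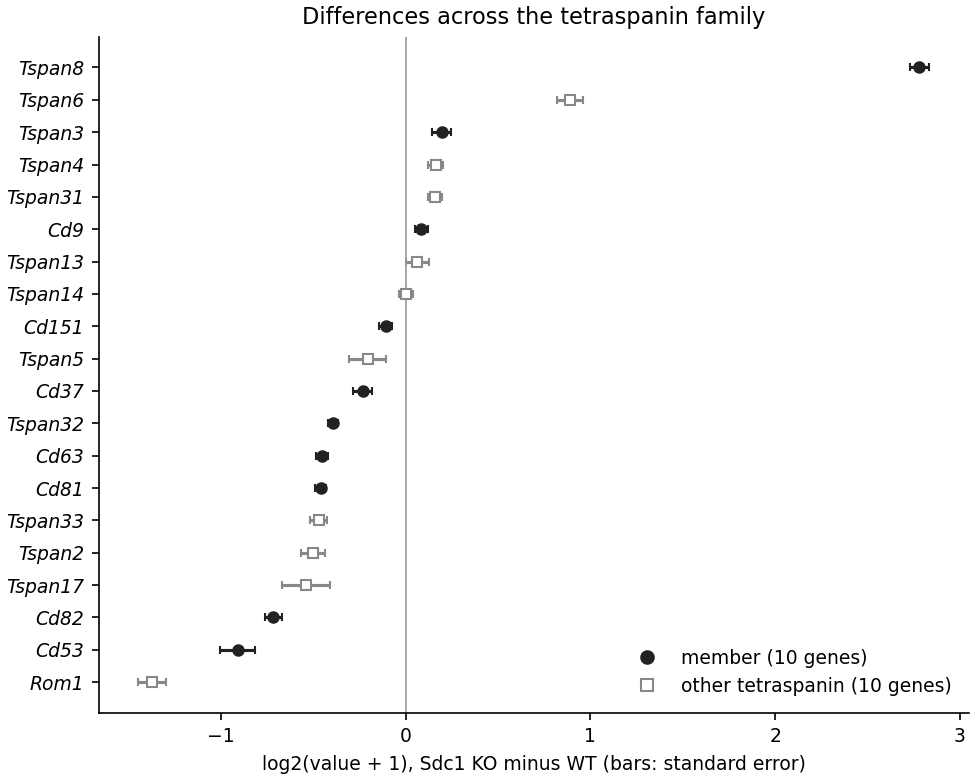
Difference of log2(value + 1), KO-labelled minus WT libraries, for the 10 members (filled circles) and the 10 other tetraspanins whose mean reached 1 (open squares), with bars for the standard error and a line at 0. Tspan8 stands apart at 2.78, the next being Tspan6 at 0.89, and Rom1 is lowest at -1.37, followed by Cd53 at -0.91.

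Genes whose products act with tetraspanins were counted in 4 lists. The lists were chosen with earlier results of these data known, so their counts and medians are a description. Beside them stand the shares of all tested genes, 29.3% higher and 31.3% lower on the deposited scale. With equal library sums these shares were 43.5% higher and 19.6% lower. Among the direct partners, 12 of 19 were tested, and 5 rose and 4 fell, with a median log2 fold change of 0.11. With equal library sums the split was 6 up and 2 down (all genes, 43.5% and 19.6%). Epcam, which binds Tspan8 and Cd9, rose from 2.23 ± 0.26 to 4.62 ± 0.039 (SD, n = 3 each; log2 fold change 0.80, SE 0.074, limma adjusted p = 1.1e-04). Clec7a, the β-glucan receptor dectin-1 that Cd37 stabilises, fell from 1.60 ± 0.21 to 0.49 ± 0.18 (log2 fold change -0.81, SE 0.12, limma adjusted p = 8.5e-04). Cd44, the hyaluronan receptor that binds Tspan8, fell by 0.14 on the log2 scale, from 37.7 ± 1.37 to 34.0 ± 0.73 (limma adjusted p = 0.016). Adam10 was at 59.4 ± 2.75 and 58.5 ± 3.72, with overlapping libraries (log2 fold change -0.02, SE 0.056, limma adjusted p = 0.74).

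The integrin partners had 6 of 9 genes tested, of which 2 rose and 3 fell, with a median of -0.011 on the log2 scale. Itgb3, the β3 chain that pairs with αIIb in the complex Tspan32 binds, fell from 67.8 ± 0.27 to 42.2 ± 0.15 (SD, n = 3 each; log2 fold change -0.67, limma adjusted p = 3.4e-06). Its partner chain Itga2b fell from 179 ± 8.47 to 149 ± 9.02 (log2 fold change -0.26, limma adjusted p = 0.0046). Itga5, the α chain of the fibronectin receptor, rose from 14.3 ± 0.61 to 21.3 ± 0.50 (log2 fold change 0.55, limma adjusted p = 5.8e-05). Itgb1, the shared β1 chain, fell by 0.11 on the log2 scale, from 117 ± 2.45 to 109 ± 2.87 (limma adjusted p = 0.028). With equal library sums the split was 3 up and 1 down (all genes, 43.5% and 19.6%).

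The syntenin and vesicle release genes had 7 of 13 tested genes fall and none rise (0 also at an unadjusted p under 0.05 in limma), out of 14 in the list, and the median log2 fold change was -0.21. Sdcbp itself, whose product ties syndecans and CD63 to vesicle budding, was at 176, 181 and 187 in WT and at 137, 143 and 145 in the KO-labelled libraries. It fell by 0.35 on the log2 scale (SE 0.037, limma adjusted p = 1.8e-04) without overlap between the groups. Rab27b, a small GTPase of vesicle docking, fell by 0.37, from 7.94 ± 0.65 to 5.91 ± 0.25 (SD, n = 3 each; limma adjusted p = 0.0025). Chmp4b, the ESCRT-III subunit with the highest level of the list, was at 191 ± 3.63 and 183 ± 7.60 and did not pass the threshold (limma adjusted p = 0.20). With equal library sums 3 fell and 1 rose, where the share of all genes that fell was 19.6% in place of 31.3% and the share that rose was 43.5%.

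Of the late endosome and lysosome membrane genes, the compartment in which Cd63 resides, 11 of 12 were in the table and tested. In limma 9 fell and 0 rose, 0 rose at an unadjusted p under 0.05, and the median log2 fold change was -0.37 against -0.0097 for all genes. Cd68, a lysosomal protein of macrophages, fell from 26.5 ± 1.80 to 9.23 ± 0.39 (SD, n = 3 each; log2 fold change -1.43, SE 0.058, limma adjusted p = 3.4e-06). Ap3s1, a subunit of the AP-3 adaptor that carries CD63 to lysosomes, fell from 105 ± 10.95 to 63.4 ± 9.45 (log2 fold change -0.72, SE 0.12, limma adjusted p = 0.0016). Lamp1 fell by 0.37 on the log2 scale (208 ± 3.91 to 161 ± 4.49, limma adjusted p = 8.9e-05) and Vamp8, the SNARE with the highest level of the list, by 0.13 (227 ± 5.01 to 207 ± 4.86, limma adjusted p = 0.010). With equal library sums the split was 6 down and 2 up (all genes, 19.6% and 43.5%).

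**Figure D4:**
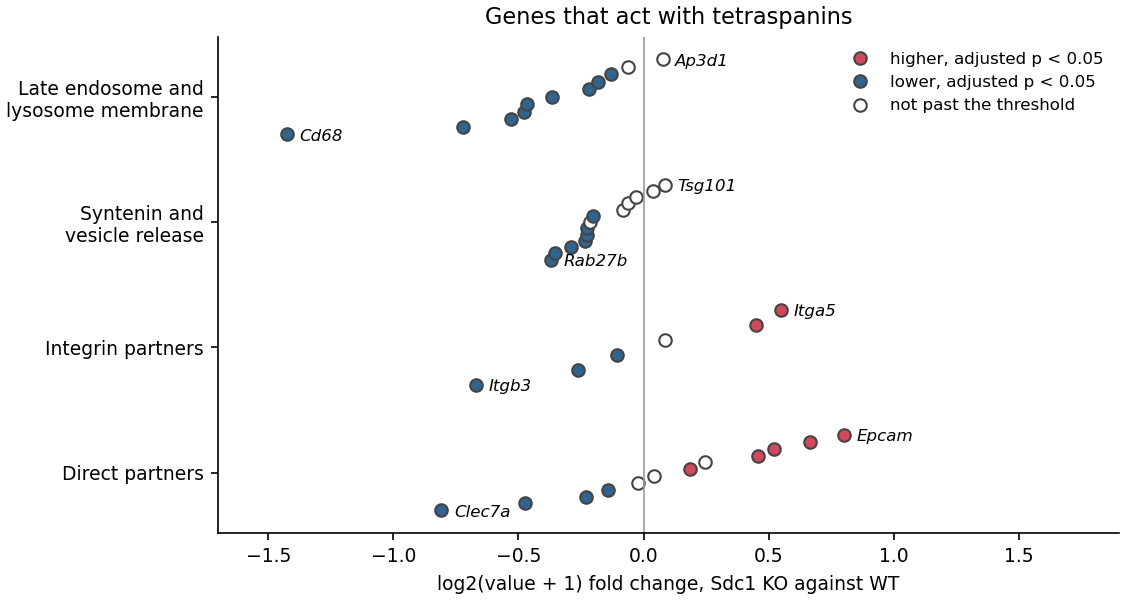
log2(value + 1) fold change, KO-labelled against WT libraries, of each tested gene in the 4 lists of genes that act with tetraspanins, with red for higher and blue for lower at an adjusted p under 0.05 in limma and white for genes not past it; the vertical spread within a list only separates points. The direct and integrin partners fall on both sides of 0. On the deposited scale shown, 7 vesicle release and 9 lysosome membrane genes are lower and none of those lists higher. Of all tested genes 31.3% are lower and 29.3% higher on that scale. With equal library sums, 3 vesicle release genes are lower and 1 higher, and 6 lysosome membrane genes are lower and 2 higher.

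Most markers of more mature myeloid and erythroid cells were lower in the KO-labelled libraries, where 7 members were lower and 3 higher. The marker lists were also chosen with earlier results known, and on the deposited scale 29.3% of all tested genes rose and 31.3% fell. All 6 neutrophil markers fell, and their summed level was 9854 to 10827 in WT and 3699 to 3850 in the KO-labelled libraries, S100a8 being highest. All 6 monocyte and macrophage markers fell (summed level 510.3 to 534 and 225 to 233, led by Ly6c2), as did all 6 of mast cells and basophils (416 to 421 and 147 to 149, with Prss34 highest in WT and Mcpt8 in the KO-labelled libraries) and all 6 of erythroid cells (9430.3 to 10126 and 5191 to 5593, led by Hbb-bt). Megakaryocyte and platelet markers, of which 5 of 6 were tested, 1 rose and 4 fell, summed to 486 to 513 and 494 to 507, with Pf4 highest. Blast and progenitor markers were all present, with a summed level of 425 to 447 in WT and 482 to 489 in the KO-labelled libraries, led by Gata2. Of the 8, 5 rose and 2 fell, the latter being Flt3 (log2 fold change -0.70) and Cd34 (-0.24). With equal library sums 43.5% of all tested genes rose and 19.6% fell, and marker counts on that scale are not given. The part of these markers in the levels of the members was not tested.

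For T cells, B cells, dendritic cells and endothelial and stromal cells most of the listed markers were at or near 0. Below 0.25 in every library were 4 of 6 T cell markers, 5 of 6 B cell markers, 3 of 5 dendritic cell markers and 5 of 6 endothelial and stromal markers, and the summed levels of the T cell list (1.30 to 2.49 in WT, 2.24 to 2.76 in KO-labelled libraries), the B cell list (2.14 to 2.79 and 1.97 to 2.61) and the dendritic cell list (2.10 to 2.67 and 1.23 to 1.58) stayed low. The highest members of these lists were Trac, Cd79b and Zbtb46. The NK list was mixed. Ncr1 was at 0.024 or less, but Klrb1c was at 7.03 ± 0.28 in WT and 6.37 ± 0.16 in the KO-labelled libraries (SD, n = 3 each). Gzma was at 1.60 ± 0.12 and 0.40 ± 0.089. Nkg7 lifted the sum of the NK list to 342 to 353 in WT and 286 to 299 in the KO-labelled libraries. Pecam1 made up most of the endothelial and stromal sum, 14.9 to 16.2 and 12.8 to 13.1.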

How the data were processed

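RNA-seq libraries (150 ng of RNA, TruSeq Stranded mRNA, single reads of 75 bases) of Lin- bcCML cells were grouped by the condition in their labels, 3 WT and 3 Sdc1 KO. The authors quantified transcripts with kallisto (version not given in the sources used here), summed them per gene and deposited a signal per gene and library, TPM rescaled between libraries. The submitters' processing notes name mm10 and sleuth 0.30.0, and the transcriptome release is not given in the sources used here. The second deposited table, the authors' own sleuth comparison (p-values, q-values, effect sizes and variances), was not used. The number of columns left out as belonging to no sample was 0.

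The 12155 genes whose mean across the 6 libraries reached 1 were tested with limma 3.58.1 in R 4.3.3 on log2(value + 1), with a single term for group, eBayes with a trend, and Benjamini-Hochberg adjustment at 0.05. The code was checked on simulated data with independent noise and few or no changed genes. Far more genes were called here, so that check gives no error rate for these libraries. The planned design assumed TPM and was kept for the rescaled values. Fold changes on this scale understate the change of low genes. Depth is unknown, so no counting error is given. Deviations of same-numbered libraries were correlated only weakly over the tested genes. The members and lists were chosen with earlier results of these data known. Named were all members, every other tetraspanin past the minimum mean, in each partner list the 2 genes with the highest mean and the 2 with the largest fold change, Sdcbp, Adam10 and Sdc1, and the most abundant gene of each marker list. Words shared between genes were counted in GENCODE M21 transcripts, whose identifiers cover 35454 of the 36083 genes. Kit and Itga2b each occur in 2 lists. The 14 alternatives changed the pseudocount (0.1, 0.5), the minimum mean (none, 5), the scaling (equal sums, quantile normalization), the eBayes trend, a block for replicate number, and left out each library. Tables were made in Python 3.11.15 (pandas 2.3.3, numpy 2.4.6) and plots in matplotlib 3.10.9.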

Additional observations from a re-analysis of the deposited data

How the results depend on the processing

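Scaling mattered most. With all libraries brought to a sum of 1000000, the genes that fell numbered 2380 of 12155 (19.6%, against 3810 with the deposited scale), those that rose 5286 (43.5%, against 3564), and the other tetraspanins that rose numbered 5. Under it 2 direct partners and 1 integrin partner fell, 3 vesicle release genes fell and 1 rose, and 2 lysosome membrane genes rose. The median difference of the members was -0.16 under that scaling and -0.23 with quantile normalization, which also gave 1 risen vesicle release gene. The differences of Cd151 (0.04) and Adam10 (0.12) changed sign with equal sums, and that of Adam10 with quantile normalization (0.036). Tspan13 and Tspan14 passed the threshold only with equal sums (limma adjusted p = 0.029 and 0.0073). With a minimum mean of 5, fewer genes were tested, and 2 other tetraspanins (of 7) fell and 3 direct partners (of 8) rose. Leaving out 1 library at a time gave a member median of -0.33 to -0.30. Tspan14 then ranged from -0.012 to 0.028, with -0.011 without KO-labelled library 1 and -0.0097 without WT library 2, and Adam10 from -0.068 to 0.023, with 0.023 without KO-labelled library 1 and 0.014 without WT library 2. Tspan5 passed without KO-labelled library 1 (limma adjusted p = 0.031). Apart from Cd151 with equal sums, no member changed direction in the alternatives that can move its difference. The block, the eBayes trend and the changed minimum means leave that difference as it is, since all members pass either minimum. Over the tested genes, same-numbered libraries had deviations correlated at 0.15, -0.0083 and 0.019, and pairs of unlike number at -0.16 to 0.14. Whether single genes deviate together by number was not tested. The replicate block gave 7624 called genes against 7374 without it, and 3 risen and 4 fallen tetraspanins outside the members. Without read counts, the depth behind the genes below a mean of 1 is unknown. The cause of these shifts was not tested.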

Other observations

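Around Tspan8, 8 other protein-coding genes of the table lie within 500 kb (measured between gene spans), and 3 of them had a mean of at least 1. Zfc3h1, which encodes a factor for nuclear RNA decay, rose from 6.03 ± 0.82 in WT to 16.98 ± 0.93 in the KO-labelled libraries (SD, n = 3 each; log2 fold change 1.36, SE 0.091, limma adjusted p = 2.4e-05). Thap2 rose from 2.76 ± 0.45 to 4.23 ± 0.21 (log2 fold change 0.48, limma adjusted p = 0.0037), and Tmem19 fell from 25.4 ± 1.63 to 16.5 ± 2.46 (log2 fold change -0.61, limma adjusted p = 0.0021). The others were below a mean of 1, with Ptprr at 0.20 or less, Lgr5 at 0.054 or less and Ptprb at 0.012 or less.

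Around Cd81 and Tspan32, 13 other protein-coding genes besides both lie within 500 kb of the Cd81 span. Of these 6 were tested, and 1 rose and 2 fell (all tested genes, 29.3% and 31.3%). Nap1l4, a histone chaperone, fell from 153 ± 2.17 to 128 ± 6.34 (SD, n = 3 each; log2 fold change -0.25, limma adjusted p = 0.0014), and Cdkn1c, the imprinted inhibitor of the cell cycle, from 4.23 ± 0.32 to 2.55 ± 0.21 (log2 fold change -0.56, limma adjusted p = 6.6e-04). Cars, a tRNA synthetase, rose from 30.4 ± 2.60 to 39.3 ± 2.89 (log2 fold change 0.36, limma adjusted p = 0.0051). Ins2 and Th were listed at 0 in all 6 libraries. These neighbours were chosen by position after the levels of the members were known.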
